A study of Sus scrofa with 18 samples.

Results

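H3K27ac in the longitudinal myometrium of pregnant gilts (GD15M_LM) was compared with H3K27ac in the circular myometrium of cyclic gilts (CD15M_CM), both on day 15. H3K27ac is acetylation of lysine 27 of histone H3, and it was mapped by CUT&Tag, in which an antibody directs a transposase to the marked chromatin. The 4 libraries used were 2 gilts per group, out of 18 libraries in the series, and they gave 57010 peaks in GD15M_LM and 82037 peaks in CD15M_CM out of 320764 peaks in the 6 deposited lists. GD15M_LM is the outer muscle layer of the mesometrial side of the uterus of Yorkshire gilts in early pregnancy, and CD15M_CM is the inner muscle layer of the same side of Yorkshire gilts in the oestrous cycle. The third H3K27ac list, from the circular layer of pregnant gilts (GD15M_CM, 2 gilts), and the 3 H3K4me3 lists are given as values beside the comparison. The study separated both layers from the same uteri, so GD15M_CM and GD15M_LM may come from the same gilts, which the labels do not state. Where these 2 lists are alike, shared status and shared gilts cannot be told apart.

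Myometrium is the smooth muscle wall of the uterus. Its inner layer runs around the uterine horn and borders the endometrium, and its outer layer runs along the horn beneath the serosa. H3K27ac is deposited at promoters and enhancers in use, while H3K4me3 marks promoters, so an H3K27ac peak near the end of a gene model and one far from any gene usually stand for different kinds of element. Around the time of attachment the pig conceptus secretes oestrogens and interferons, and contractions of the myometrium help to move and space the conceptuses along the horns.

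The 2 groups differ in layer and in reproductive status at the same time, so an effect of the layer and an effect of pregnancy cannot be told apart in this pair. The authors pooled both gilts of a group before calling peaks, so each group is 1 list. The difference between the groups and the difference between gilts cannot be told apart either, no test between groups was possible, and every difference below is a description of these 2 lists. Intervals are 95% Wilson intervals and cover counting error only. The number of reads behind each library is not in the peak lists.

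The CD15M_CM list was the longer one. Its peaks covered 75.3 Mb with a median length of 559 bp, against 53.0 Mb and 606 bp in GD15M_LM. The fold enrichment of a peak over the IgG control had a median of 3.79 in GD15M_LM and 3.53 in CD15M_CM, with maxima of 14.0 and 14.3. The number of peaks with a −log10 p of at least 10 and a fold enrichment of at least 5 ran the other way, with 11306 in GD15M_LM and 10200 in CD15M_CM.

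Most of the shorter list lay within the longer one. Of the GD15M_LM peaks, 48850 shared at least 1 bp with a CD15M_CM peak (85.7%, interval 85.4 to 86.0), and 8160 did not. Of the CD15M_CM peaks, 46138 shared at least 1 bp with a GD15M_LM peak (56.2%, interval 55.9 to 56.6), and 35899 did not. The shared bases came to 45.2 Mb, which was 85.3% of the bases of the GD15M_LM list and 60.03% of those of the CD15M_CM list. With the 57010 top peaks of both lists by −log10 p, the shares were 74.4% of GD15M_LM and 67.4% of CD15M_CM. Among the stricter peaks alone the order turned, with 50.8% of the GD15M_LM peaks and 55.5% of the CD15M_CM peaks shared. Both lists were cut to the stricter peaks before this overlap, so a partner under the limits did not count.

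Peaks held by 1 list were weak ones. Their median fold enrichment was 3.27 in GD15M_LM and 3.23 in CD15M_CM, against 3.96 and 3.89 for shared peaks. In the top decile of fold enrichment, 99.5% of GD15M_LM peaks and 96.3% of CD15M_CM peaks had a partner in the other list. Against the full other list, 55 of the 11306 stricter peaks of GD15M_LM and 298 of the 10200 of CD15M_CM had no partner. The third H3K27ac list held a peak at 29.9% of the peaks found in GD15M_LM only and at 41.6% of those found in CD15M_CM only, while it held 79.5% and 79.4% of the shared peaks.

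**Figure D1:**
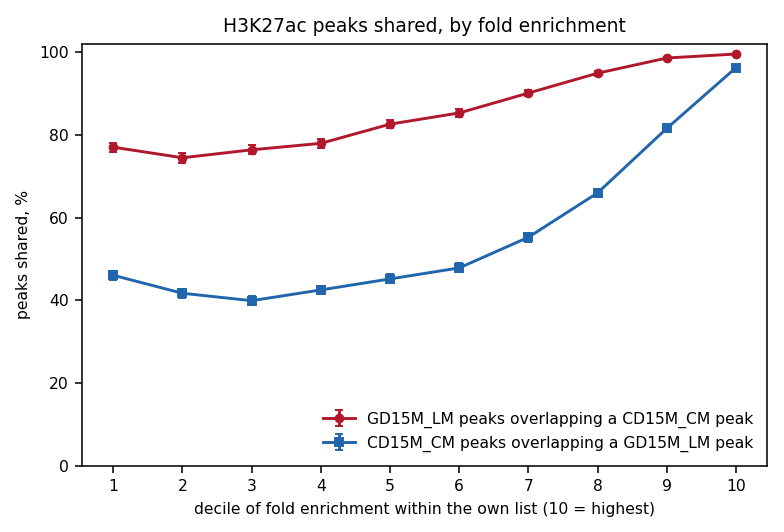
Share of the H3K27ac peaks of GD15M_LM (red circles) and CD15M_CM (blue squares) that overlapped a peak of the other list by at least 1 bp, in percent, by decile of fold enrichment within the own list (10 is the highest). Bars are 95% Wilson intervals. The GD15M_LM share stays above the CD15M_CM share in each decile, and both end near the top, at 99.5% and 96.3%.

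Shared peaks sat near gene ends more often than peaks of 1 list. Of the peaks on placed chromosomes, those within 3 kb of either end of a RefSeq gene were 42.7% of the shared and 27.2% of the unshared GD15M_LM peaks, and 43.7% of the shared and 23.9% of the unshared CD15M_CM peaks. An H3K4me3 peak of the same group overlapped 50.2% of the shared and 20.03% of the unshared GD15M_LM peaks. In CD15M_CM the corresponding shares were 49.2% and 16.9%.

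For each of 28210 RefSeq genes of the pig assembly Sscrofa11.1, the highest peak within 3 kb of either gene end was given its percentile of fold enrichment within its own list, with 0 for a gene without a peak. The gene models used carry no strand, so a start and an end were treated alike. The difference between the lists is GD15M_LM minus CD15M_CM in percentile points, and a gene was counted as ranked higher in a list at 25 points or more. Of 17494 genes with a peak in either list, 1904 ranked at least 25 points higher in GD15M_LM (10.9%) and 3243 at least 25 points higher in CD15M_CM (18.5%). A peak in GD15M_LM only was found at 281 genes (1.61%) and in CD15M_CM only at 1262 (7.21%).

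This split depended on the length of the lists. With equal numbers of top peaks, 3583 of 17007 genes ranked at least 25 points higher in GD15M_LM (21.1%) and 2256 in CD15M_CM (13.3%), and the share of genes with any difference in favour of GD15M_LM went from 43% to 55.8%. The median difference over all genes moved from −2.59 points to 2.41 points. Gene groups are therefore read against all genes in both settings, and neither split of all genes is taken as a gain or loss of acetylation.

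The cell type markers of the smooth muscle layer were acetylated in all lists. All 8 smooth muscle markers had a peak in each H3K27ac list, with summed percentiles of 701 in GD15M_LM, 734 in CD15M_CM and 664 in GD15M_CM. MYH11, the smooth muscle myosin heavy chain, was the only one of them past 25 points, at percentile 68.0 in GD15M_LM, 94.3 in CD15M_CM and 96.6 in GD15M_CM, and it came to −23.8 points with equal numbers of top peaks.

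Epithelial markers ranked in both directions. Of the 12, 6 ranked higher in GD15M_LM and 6 in CD15M_CM by any amount, in both settings. The summed percentile of the 12 epithelial markers was 454 in GD15M_LM, 725 in CD15M_CM and 844 in GD15M_CM. Of the 12, 6 ranked at least 25 points higher in CD15M_CM and 0 in GD15M_LM (50% and 0%, against 18.5% and 10.9% of all genes). With equal numbers of top peaks the counts were 5 and 4 (41.7% and 33.3%, against 13.3% and 21.1%). Those higher in GD15M_LM by any amount as called were CDH1, KRT7, ELF3, ESRP2, CLDN3 and CLDN4, by 1.32 to 16.6 points. KRT18, KRT19 and GRHL2 had no peak in GD15M_LM, and no epithelial marker was without one in the other H3K27ac lists. GRHL2, a transcription factor of epithelia, stood at 0 in GD15M_LM, 69.8 in CD15M_CM and 70.5 in GD15M_CM. EPCAM, an epithelial adhesion molecule, stood at 19.8, 71.9 and 74.95 in the same order. Their H3K4me3 percentiles were 56.4, 77.5 and 82.9 for GRHL2 and 59.3, 71.9 and 75.8 for EPCAM. At GRHL2 and EPCAM both marks thus ranked lower in the longitudinal layer list. These genes are among the markers that ranked lower in GD15M_LM by H3K27ac. H3K4me3 is not given here for the other epithelial markers, so nothing is concluded on both marks for the whole list. With windows of 1 kb the H3K27ac difference at EPCAM turned to 17.9 points.

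Several defining markers of other cells had no peak. For lymphatic endothelium, 0 of 3 markers had a peak in GD15M_LM, against 2 of 3 in both circular layer lists, where PROX1, the regulator of lymphatic identity, reached 63.9 and 80.8. The summed percentile of 11 endothelial markers was 224 in GD15M_LM, 107 in CD15M_CM and 151 in GD15M_CM, with KDR, TEK, TIE1, ERG and EMCN at 0 in all of them. Summed percentiles of 11 T cell markers were 102.9, 126.7 and 326 in that order, with CD3E and CD3D at 0 in all of them and CD3G at 0 in GD15M_LM and CD15M_CM. Summed percentiles of 11 macrophage markers were 343, 447 and 448, with CD163, the C1Q genes and MRC1 at 0. For 8 pericyte and interstitial cell markers the sums were 393, 562 and 420, and RGS5, a pericyte gene, stood at 0, 73.4 and 0. Summed percentiles of 6 B cell markers were 77.7, 160.0 and 64.6, with MS4A1 at 0. Sums over 8 nerve and glia markers were 78.2, 159.9 and 151.7, and TH was at 0. Mesothelial sums over 6 markers were 282, 313 and 272. Adipocyte sums over 6 markers were 170, 268 and 202, with ADIPOQ and LEP at 0, while PPARG stood at 5.203, 87.9 and 37.6. These sums and zeros are of the lists as called, and both circular layer lists are longer (82037 and 79877 peaks, against 57010). Over all cell type markers with a peak, 3 of 57 ranked at least 25 points higher in GD15M_LM and 20 in CD15M_CM (5.26% and 35.1%, against 10.9% and 18.5% of all genes). With equal numbers of top peaks it was 13 and 12 of 56 (23.2% and 21.4%, against 21.1% and 13.3%). In bulk tissue fewer cells of a type and less acetylation per cell cannot be told apart, and the part of these cells in the gene differences below was not tested.

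Genes of the contractile apparatus ranked high in both lists. Of 24 genes, 23 had a peak, with median percentiles of 87.7 in GD15M_LM and 91.9 in CD15M_CM. Only 1 of the 23 ranked at least 25 points higher in GD15M_LM and 2 in CD15M_CM, and 4 and 1 did so with equal numbers of top peaks, which lies below the share of all genes in both directions and both settings. The smooth muscle actins stood at 88.5 and 71.9 for ACTA2 and at 95.1 and 86.6 for ACTG2, in GD15M_LM and CD15M_CM. PDLIM5, a PDZ and LIM domain protein of the Z line, stood at 92.9 in GD15M_LM, 53.3 in CD15M_CM and 91.6 in GD15M_CM. Its relative PDLIM7 went the other way, at 54.8, 95.05 and 89.7. FLNA, the actin cross-linker filamin A, stood at 87.2, 63.2 and 36.6, a difference of 23.98 points that lies just inside the limit.

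The dystrophin, caveola and adhesion genes ranked higher in the longitudinal layer list more often than genes at large. Of 15 with a peak, 11 ranked higher in GD15M_LM by any amount (73.3%, against 43% of all genes), and 12 of 15 did with equal numbers of top peaks (80.0%, against 55.8%). The median difference of the list was above that of all genes with the lists as called and under each of the 7 alternatives. As called, most of these differences were small, with only CAV2 past 25 points. That was 1 gene higher in GD15M_LM and 0 in CD15M_CM (6.67% and 0%, against 10.9% and 18.5% of all genes). With equal numbers of top peaks the counts were 4 and 0 of 15 (26.7% and 0%, against 21.1% and 13.3%). CAV2, which forms caveolae together with CAV1, stood at 83.7 in GD15M_LM, 28.3 in CD15M_CM and 75.8 in GD15M_CM. The fold enrichment of its peak was 5.55, 3.02 and 4.31. CAV1 stood at 87.4, 65.9 and 49.9994, and the fibronectin receptor subunit ITGA5 at 96.0, 74.04 and 87.3.

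Regulators of smooth muscle genes ranked in both directions. SRF and its coactivator MYOCD, which drive the contractile programme, stood at 95.4 and 98.9 for SRF and 96.9 and 96.1 for MYOCD in GD15M_LM and CD15M_CM. Of 14 regulators with a peak, 3 ranked at least 25 points higher in GD15M_LM and 3 in CD15M_CM (21.4% each, against 10.9% and 18.5% of all genes). With equal numbers of top peaks 5 and 1 did (35.7% and 7.14%, against 21.1% and 13.3%). FHL1, a LIM-only protein of muscle, stood at 96.0 in GD15M_LM, 45.6 in CD15M_CM and 0 in GD15M_CM. FHL2, of the same family, stood at 0, 46.0 and 0. MEF2A, a myocyte enhancer factor, stood at 48.8, 7.71 and 0, and TEAD3, a partner of the YAP coactivators, at 55.6, 94.6 and 77.9. FHL1 and FHL2 thus ranked in opposite directions between the 2 lists, and neither had a peak within 3 kb of its ends in the circular layer of pregnant gilts.

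Receptors for contractants and relaxants also ranked in both directions. Of 37 receptor genes, 30 had a peak. At the limit, 5 ranked at least 25 points higher in GD15M_LM and 6 in CD15M_CM (16.7% and 20%, against 10.9% and 18.5% of all genes). With equal numbers of top peaks the counts were 5 and 4 of 29 (17.2% and 13.8%, against 21.1% and 13.3%). Those higher in GD15M_LM were 3 prostanoid receptors, the muscarinic receptor CHRM2 and the adrenergic receptor ADRA2B. PTGIR, the prostacyclin receptor, which relaxes smooth muscle, stood at 88.6 in GD15M_LM, 45.2 in CD15M_CM and 65.8 in GD15M_CM. TBXA2R, the thromboxane receptor, stood at 76.3, 30.9 and 49.0, and PTGER4, a prostaglandin E2 receptor coupled to cyclic AMP, at 68.0, 23.7 and 35.9. CHRM2 stood at 74.2, 24.2 and 71.0. ADRA2B stood at 73.7, 2.23 and 0.

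The receptors higher in CD15M_CM had no peak or a low-ranking one in GD15M_LM. HTR4, a serotonin receptor, stood at 0 in GD15M_LM, 61.6 in CD15M_CM and 0 in GD15M_CM. ADRA1B, an adrenergic receptor that raises calcium, stood at 0, 58.1 and 0. TACR3 and TACR1, the receptors of neurokinin B and substance P, stood at 2.84 and 0 in GD15M_LM, 60.1 and 53.8 in CD15M_CM, and 0 and 56.1 in GD15M_CM. ADRA2C and CHRM1 were at 0 in GD15M_LM and at 44.3 and 39.3 in CD15M_CM. OXTR, the oxytocin receptor, differed by −8.60 points as called and by 3.17 with equal numbers of top peaks, at 64.6 in GD15M_LM, 73.2 in CD15M_CM and 0 in GD15M_CM.

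Genes of phosphoinositide and calcium signalling held more differences past the limit in favour of GD15M_LM by fold enrichment. Of 27 with a peak, 6 ranked at least 25 points higher in GD15M_LM (22.2%, against 10.9% of all genes) and 2 in CD15M_CM (7.41%, against 18.5%). With equal numbers of top peaks 8 and 2 did (29.6% and 7.41%, against 21.1% and 13.3%). Ranked by −log10 p, the share was 3.70% in favour of GD15M_LM, against 5.16% of all genes, and 7.41% in favour of CD15M_CM. Among the 6 were RYR2, CALM2, CAMK2D, ATP2B4 and CACNA1H. RYR2, a calcium release channel of the sarcoplasmic reticulum, stood at 86.5 in GD15M_LM, 30.7 in CD15M_CM and 63.1 in GD15M_CM. CALM2, a calmodulin gene, stood at 93.9, 48.6 and 85.3. CAMK2D, a calmodulin-dependent kinase, stood at 89.9, 53.5 and 90.3, and ATP2B4, a plasma membrane calcium pump, at 91.4, 58.6 and 96.2.

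CACNA1C, the pore subunit of the L-type calcium channel through which smooth muscle draws calcium, ranked the other way. Its peak at chr5:69015575-69023950 had a fold enrichment of 3.22 in GD15M_LM, and the CD15M_CM peak over the same stretch had 7.30. The percentiles were 27.8 in GD15M_LM, 98.3 in CD15M_CM and 74.7 in GD15M_CM, a difference of −70.5 points. By −log10 p the difference was −30.1 points, and with its gene body taken along with the 3 kb windows it was 0.378 points. The H3K4me3 percentiles were in the reverse order, at 95.1, 71.5 and 75.5. PLCB2, a phospholipase C, was the other gene higher in CD15M_CM, at 22.2, 65.6 and 60.1.

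In the calcium sensitisation and cyclic GMP pathways 2 of 18 genes ranked at least 25 points higher in each list, and 4 in GD15M_LM and 2 in CD15M_CM with equal numbers of top peaks. ROCK2, the kinase that sensitises the contractile apparatus to calcium, stood at 94.1 in GD15M_LM, 47.4 in CD15M_CM and 97.9 in GD15M_CM. GUCY1A1, a subunit of the nitric oxide receptor, stood at 94.6, 51.2 and 70.4. PRKG1, the cyclic GMP-dependent kinase that relaxes smooth muscle, stood at 10.4, 86.6 and 21.9, with fold enrichments of 2.73, 5.04 and 2.86. NPR1, the natriuretic peptide receptor that makes cyclic GMP, stood at 58.7, 92.3 and 73.3.

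Potassium channels and connexins ranked lower in GD15M_LM than all genes did. Of 16 with a peak, 4 ranked higher in GD15M_LM by any amount, against 43% of all genes, and 6 of 14 did with equal numbers of top peaks, against 55.8%. The list median was below that of all genes with the lists as called and under each of the 7 alternatives. At the 25-point limit 5 ranked higher in CD15M_CM and 2 in GD15M_LM as called (31.25% and 12.5%, against 18.5% and 10.9% of all genes). With equal numbers of top peaks it was 2 and 2 (14.3% each, against 13.3% and 21.1%). KCNH2, a voltage-gated channel, stood at 54.2 in GD15M_LM, 89.6 in CD15M_CM and 35.7 in GD15M_CM. KCNQ5 ran the other way, at 91.1 in GD15M_LM against 65.6 in CD15M_CM. GJA1, the gap junction protein of the labouring uterus, stood at 92.8, 79.3 and 93.4.

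Among steroid receptors and their co-regulators, 3 of 12 ranked at least 25 points higher in GD15M_LM (25%) and 1 in CD15M_CM (8.33%) in both settings. The shares over all genes were 10.9% and 18.5% as called and 21.1% and 13.3% with equal numbers. NR3C2, the mineralocorticoid receptor, had the largest difference of any listed gene in favour of GD15M_LM, 84.1 points. Its peak at one gene end had a fold enrichment of 7.21 in GD15M_LM, 2.60 in CD15M_CM and 2.08 in GD15M_CM, and percentiles of 94.9, 10.8 and 0.627. PGRMC2, a membrane-associated progesterone-binding protein, stood at 84.1, 1.45 and 79.3, and PGRMC1 at 31.0, 70.6 and 62.3. The nuclear oestrogen receptor ESR2 stood at 56.8, 15.3 and 0. The other nuclear oestrogen receptor, ESR1, and the nuclear progesterone receptor, PGR, were closer, with PGR at 86.2, 80.1 and 72.0 and ESR1 at 83.6, 97.8 and 93.9.

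Prostaglandin and steroid synthesis genes ranked lower in GD15M_LM by median but held large differences both ways. The median difference over 15 genes with a peak was −21.0 points as called and −7.93 with equal numbers of top peaks, below that of all genes in both. Relative to all genes it was −1.47 points with peaks under 1 kb apart joined and −0.198 with the gene body included. By any amount 6 of 15 ranked higher in GD15M_LM (40%, against 43% of all genes). At the 25-point limit the counts were 3 in GD15M_LM and 5 in CD15M_CM (20% and 33.3%, against 10.9% and 18.5%). With equal numbers they were 6 and 3 of 14 (42.9% and 21.4%, against 21.1% and 13.3%). PTGES2, a prostaglandin E synthase, stood at 85.1 in GD15M_LM, 11.9 in CD15M_CM and 22.8 in GD15M_CM. PTGS2, the inducible cyclo-oxygenase, stood at 81.1, 42.4 and 10.5, and HPGD, which inactivates prostaglandins, at 44.1, 18.5 and 51.7. Higher in CD15M_CM were TBXAS1, thromboxane synthase, at 0, 60.2 and 71.8, and the prostaglandin transporters ABCC4 at 37.0, 87.8 and 93.8 and SLCO2A1 at 21.8, 68.7 and 75.7. PTGES, another E synthase, stood at 64.5, 91.5 and 89.0.

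The IGF system held 1 gene past 25 points of 8 with a peak, IGFBP2, at 0 in GD15M_LM, 36.7 in CD15M_CM and 63.1 in GD15M_CM. The shares past the limit were 0% in GD15M_LM and 12.5% in CD15M_CM, against 10.9% and 18.5% of all genes. IGFBP2 came to −13.3 points with equal numbers of top peaks. There the counts were 1 in GD15M_LM and 0 in CD15M_CM of 7 (14.3% and 0%, against 21.1% and 13.3%). The list median was below that of all genes with the lists as called and under each of the 7 alternatives.

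**Figure D2:**
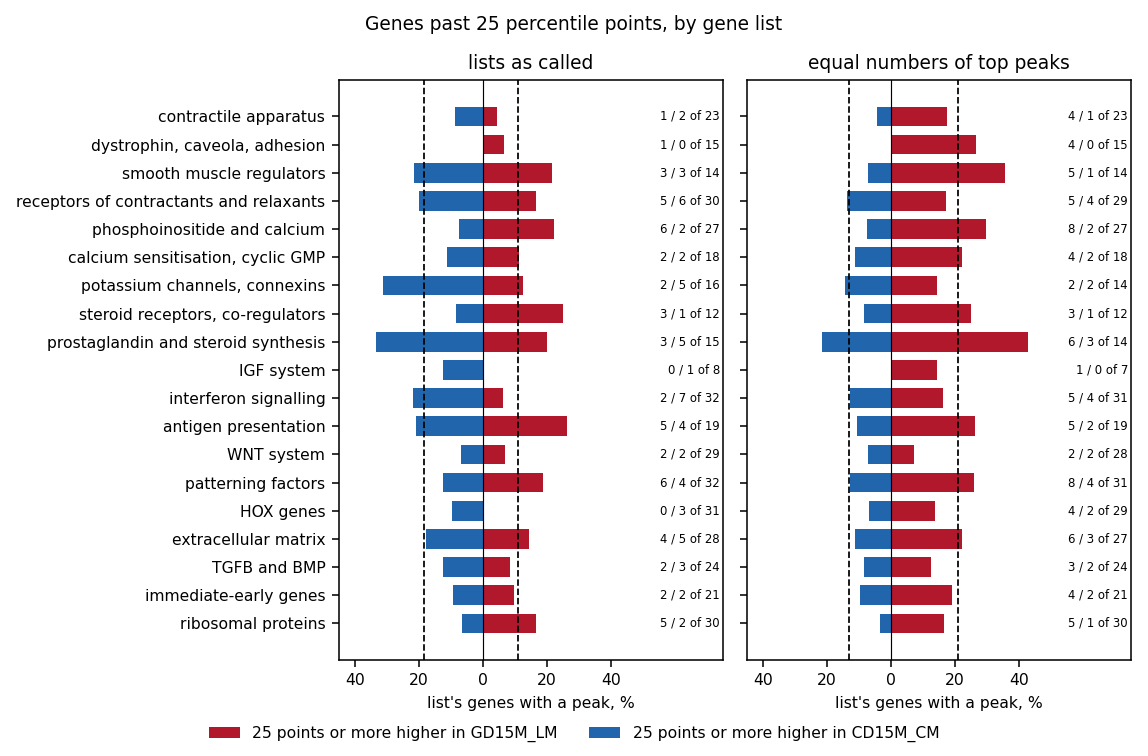
Share of the genes with a peak, in percent, that ranked at least 25 percentile points higher in GD15M_LM (red, to the right) or in CD15M_CM (blue, to the left), for each of 19 gene lists, with the lists as called and with equal numbers of top peaks. Dashed lines are the shares over all genes, 10.9% and 18.5% as called and 21.1% and 13.3% with equal numbers, and the figures at the right count genes in each direction of those with a peak. In the left panel 5 lists pass the dashed lines on both sides: smooth muscle regulators, receptors, potassium channels and connexins, prostaglandin and steroid synthesis, and antigen presentation.

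Interferon genes ranked in both directions. Of 32 genes, all with a peak, 2 ranked at least 25 points higher in GD15M_LM (6.25%) and 7 in CD15M_CM (21.9%), against 10.9% and 18.5% of all genes. With equal numbers of top peaks the counts were 5 and 4 of 31 (16.1% and 12.9%, against 21.1% and 13.3%). Of the interferon-induced effectors, IFIT3 stood at 10.3 in GD15M_LM, 96.3 in CD15M_CM and 99.9 in GD15M_CM, IFIT2 at 55.3, 98.2 and 99.3, and RSAD2 at 39.1, 69.1 and 78.6. The fold enrichment at IFIT3 was 2.73, 6.53 and 10.8. IRF9, a transcription factor of the interferon response, stood at 53.8, 87.4 and 98.5, and IRF2 at 50.1, 87.8 and 93.7. IRF2 ranked the other way with windows of 1 kb, by 42.5 points. With windows of 3 kb the circular layer at these 5 genes ranked above the longitudinal layer list in both its lists, and GD15M_CM ranked the highest of the 3.

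Other interferon genes ranked higher in GD15M_LM. ISG15, a ubiquitin-like modifier induced by interferon, stood at 68.4 in GD15M_LM, 16.3 in CD15M_CM and 75.8 in GD15M_CM. SOCS1, the feedback inhibitor of JAK kinases, stood at 94.99, 35.8 and 83.5. MX1 stood at 88.1, 79.9 and 87.1. At ISG15 and SOCS1 both lists from pregnant gilts ranked above the list from cyclic gilts.

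Antigen presentation genes also ranked in both directions. Of 19 genes with a peak, 5 ranked at least 25 points higher in GD15M_LM (26.3%) and 4 in CD15M_CM (21.1%), against 10.9% and 18.5% of all genes. With equal numbers of top peaks 5 and 2 did (26.3% and 10.5%, against 21.1% and 13.3%). SLA-DMA, which loads peptides onto class II molecules, stood at 55.3 in GD15M_LM, 1.60 in CD15M_CM and 92.5 in GD15M_CM. CD74, the class II invariant chain, stood at 82.1, 44.3 and 89.6, and PSMB10, an immunoproteasome subunit, at 87.3, 44.4 and 92.8. SLA-DRA and SLA-DRB1 had no peak in the pair and stood at 88.0 and 93.4 in GD15M_CM. The class I genes SLA-1, SLA-3 and SLA-6 stood at 62.1, 16.7 and 5.04 in GD15M_LM and at 96.1, 66.6 and 41.8 in CD15M_CM, with 96.5, 88.2 and 40.6 in GD15M_CM. SLA-2 stood at 99.6, 66.8 and 88.9, and came to −4.16 points with windows of 1 kb. These class I genes are near copies of each other. Reads that fit several of them may have been removed by the mapping quality limit of 25, which was not tested.

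In the WNT list the differences past the limit were few. Of 29 genes, 2 ranked at least 25 points higher in each list in both settings. That was 6.90% as called and 7.14% of 28 with equal numbers of top peaks, below the shares over all genes. SFRP4, a secreted WNT antagonist, had a peak of 5.39-fold in CD15M_CM and of 2.54-fold in GD15M_LM, and stood at 5.203 in GD15M_LM, 90.0 in CD15M_CM and 0 in GD15M_CM. WNT4, a ligand of the female reproductive tract, stood at 0, 71.1 and 0. WNT7A, an epithelial ligand, stood at 59.1, 18.5 and 0.

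Patterning factors and HOX genes, which are broadly acetylated in the uterus, held large single differences. Of 32 patterning genes with a peak, 6 ranked at least 25 points higher in GD15M_LM and 4 in CD15M_CM (18.75% and 12.5%, against 10.9% and 18.5% of all genes). With equal numbers of top peaks the counts were 8 and 4 of 31 (25.8% and 12.9%, against 21.1% and 13.3%). TBX18, a T-box factor of the urogenital mesenchyme, stood at 89.4 in GD15M_LM, 24.04 in CD15M_CM and 0 in GD15M_CM. FOXC2 stood at 65.5, 0 and 6.67, while its relative FOXC1 stood at 22.2, 78.0 and 91.7. FOXF1 stood at 60.7, 23.9 and 37.3, while its relative FOXF2 stood at 0, 61.2 and 0. SOX17, a factor of endothelium and of the uterine epithelium, stood at 0, 72.8 and 94.2. Of 31 HOX genes with a peak, 0 ranked at least 25 points higher in GD15M_LM and 3 in CD15M_CM as called (0% and 9.68%). With equal numbers of top peaks the counts were 4 and 2 of 29 (13.8% and 6.90%). All of these lie below the shares over all genes. HOXD1 stood at 16.0, 81.0 and 0, and HOXA5 at 28.2, 89.9 and 96.8. HOXA10 and HOXA11, which specify the uterus, stood at 99.8 and 99.5 in GD15M_LM, 99.7 and 99.7 in CD15M_CM and 99.3 and 98.8 in GD15M_CM.

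Extracellular matrix genes ranked at least 25 points higher in GD15M_LM at 4 of 28 genes and in CD15M_CM at 5. That was 14.3% and 17.9%, against 10.9% and 18.5% of all genes. With equal numbers of top peaks the counts were 6 and 3 of 27, where the shares over all genes were 21.1% and 13.3%. The shares of this list thus lay near those over all genes in both settings. COL1A2, a chain of type I collagen, stood at 87.4 in GD15M_LM, 5.69 in CD15M_CM and 91.8 in GD15M_CM. The GD15M_LM peak, at chr9:74172898-74175758 over one end of the gene, had a fold enrichment of 5.94, and the overlapping peaks of CD15M_CM and GD15M_CM had 2.42 and 5.63. Its partner chain COL1A1 stood at 95.4, 98.3 and 96.8. The laminin chains LAMB1 and LAMA2 stood at 84.5 and 91.1 in GD15M_LM and at 10.8 and 53.3 in CD15M_CM, and LAMA4 ranked the other way at 64.3 and 95.9. COL3A1 stood at 51.2, 92.4 and 38.0, and the proteoglycan LUM at 0, 71.9 and 0.

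In the TGFB and BMP list, 8 of 24 genes ranked higher in GD15M_LM by any amount (33.3%, against 43% of all genes). Its median was below that of all genes with the lists as called and under each of the 7 alternatives. At the 25-point limit the counts were 2 in GD15M_LM and 3 in CD15M_CM (8.33% and 12.5%, against 10.9% and 18.5% of all genes). With equal numbers of top peaks they were 3 and 2 (12.5% and 8.33%, against 21.1% and 13.3%). These shares lie below those over all genes. NOG, a secreted antagonist of BMP, stood at 69.2 in GD15M_LM, 19.3 in CD15M_CM and 0 in GD15M_CM. The ligand BMP5 stood at 63.9, 0 and 0, and the receptor BMPR1B at 0, 59.4 and 0. Immediate-early genes, which are induced within minutes of a stimulus, ranked at least 25 points higher at 2 of 21 in each list. That was 9.52% each, against 10.9% and 18.5% of all genes. With equal numbers of top peaks the counts were 4 in GD15M_LM and 2 in CD15M_CM, where the shares over all genes were 21.1% and 13.3%. In both directions and both settings the shares of the immediate-early list lay below those over all genes. ATF3 stood at 64.6, 97.6 and 99.0, and NR4A2 at 84.4, 47.7 and 99.6. Ribosomal protein genes, listed as housekeeping genes, held 5 of 30 past 25 points in GD15M_LM and 2 in CD15M_CM (16.7% and 6.67%, against 10.9% and 18.5% of all genes). With equal numbers of top peaks they held 5 and 1 (16.7% and 3.33%, against 21.1% and 13.3%). Differences of this size thus also occurred among genes in constant use.

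**Figure D3:**
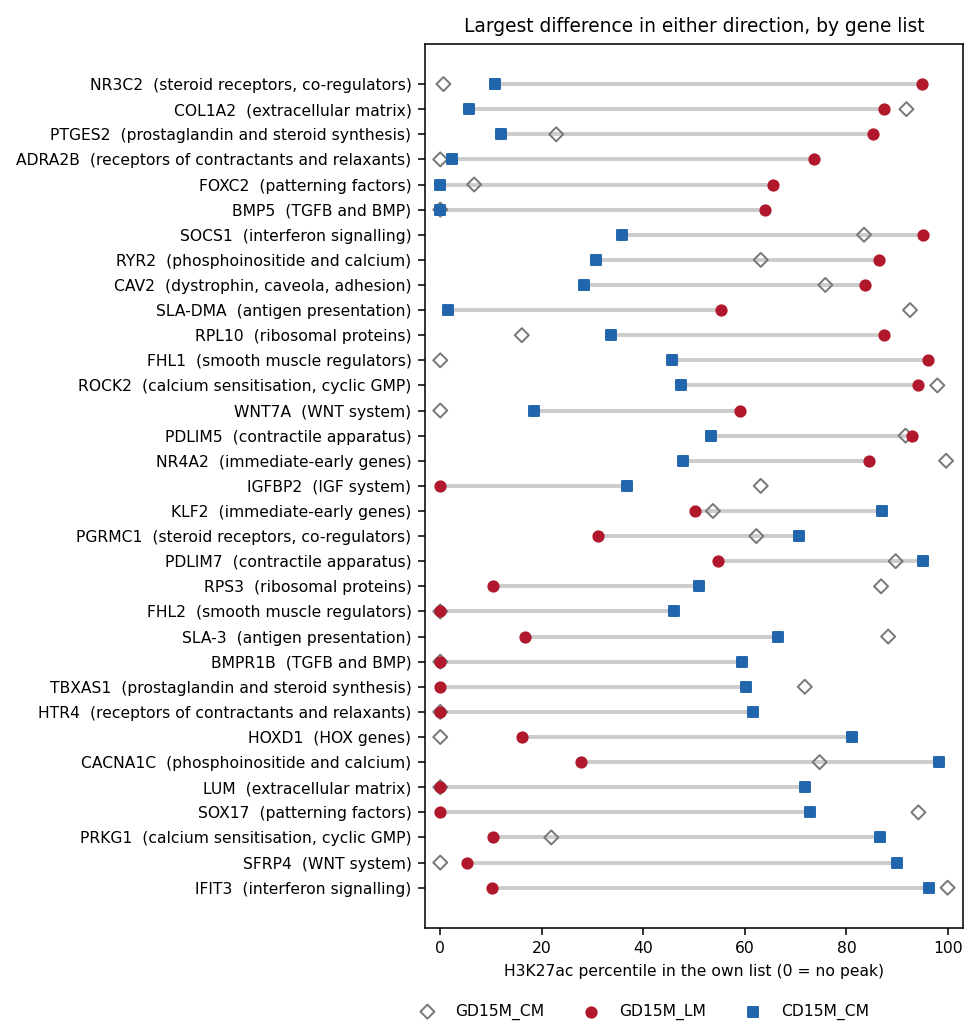
H3K27ac percentile within the own list for the gene with the largest difference in either direction in each of the gene lists other than potassium channels and connexins, among genes past 25 points that kept their sign with equal numbers of top peaks and by −log10 p. Red circles are GD15M_LM, blue squares CD15M_CM and open diamonds GD15M_CM, each 1 pooled list of 2 gilts, and 0 means no peak within 3 kb of a gene end. The diamonds lie near red at COL1A2 and ROCK2, near blue at IFIT3, between both at RYR2 and CACNA1C, beyond both at SLA-DMA and IGFBP2, and at 0 at SFRP4 and FHL1.

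The 12 genes with the largest difference in each direction, among protein-coding genes whose stronger peak had a −log10 p of at least 10 and whose difference kept its sign with equal numbers of top peaks and by −log10 p, lay outside these lists. Higher in GD15M_LM were NXT2, LEFTY2, SEC23A, C1H15orf41, ECT2, CRY1, ENPEP, FGL1, PCM1, TLL1, CYP2R1 and HACE1, with differences from 94.1 to 87.6 points. LEFTY2, an inhibitor of NODAL signalling, stood at 95.2 in GD15M_LM, 1.44 in CD15M_CM and 90.3 in GD15M_CM. CRY1, a repressor of the circadian clock, stood at 91.7, 2.09 and 94.7, and ENPEP, an aminopeptidase that cleaves angiotensin, at 94.3, 4.75 and 12.05. FGL1 and PCM1 are counted by the same peak. All 12 had a weak peak in CD15M_CM, with fold enrichments of 2.55 or less.

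Higher in CD15M_CM were TMEM262, LMO3, C3H2orf74, PITRM1, C1QTNF3, ZSCAN9, CIART, RCSD1, MEIG1, ACTR6, FGF12 and ABCC11, with differences from −98.8 to −94.4 points. ABCC11 came to −5.07 points with peaks under 1 kb apart joined and to −4.11 with its gene body included. LMO3, a LIM-only transcriptional cofactor, stood at 0 in GD15M_LM, 98.0 in CD15M_CM and 0 in GD15M_CM. CIART, a clock repressor, stood at 0, 95.5 and 87.1. C1QTNF3 and FGF12 had a peak in CD15M_CM alone among the 3 H3K27ac lists, with fold enrichments of 6.38 and 6.14. CRY1 and CIART, which both repress the clock, thus ranked in opposite directions, and GD15M_CM ranked high at both.

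The third H3K27ac list lay between the pair by median. At the 1904 genes higher in GD15M_LM, the median percentile was 83.8 in GD15M_LM, 37.0 in CD15M_CM and 75.7 in GD15M_CM. At the 3243 genes higher in CD15M_CM it was 26.2, 80.2 and 69.7. These genes were chosen for a gap between the GD15M_LM and CD15M_CM values. A GD15M_CM median between them can follow from this choice alone, so no conclusion is drawn from its place. Over all genes with a peak the medians were 80.1 in GD15M_LM, 83.2 in CD15M_CM and 84.2 in GD15M_CM. The GD15M_CM median was thus lower at both sets of chosen genes than over all genes. No test was made, since GD15M_CM shares its layer with 1 list and its status with the other.

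H3K4me3, which was not used to choose these genes, was read at the same genes. At the genes higher in GD15M_LM, the median H3K4me3 percentile was 75.8 in GD15M_LM, 73.0 in CD15M_CM and 73.99 in GD15M_CM. At the genes higher in CD15M_CM it was 62.7, 71.6 and 67.2. Over all genes with a peak it was 77.7, 80.6 and 78.8. By median, both sets of genes thus carried the promoter mark in all groups, and the widest gap in H3K4me3 was at the genes higher in CD15M_CM, which ranked lower in GD15M_LM.

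**Figure D4:**
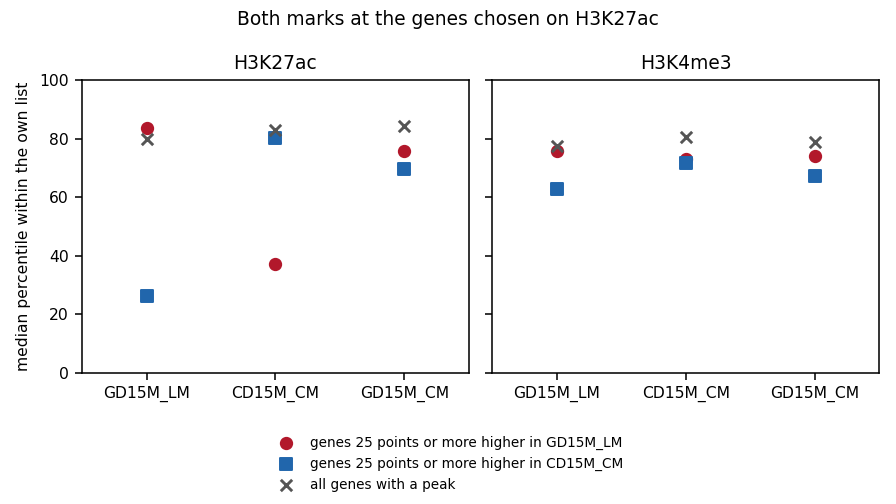
Median percentile within the own list for H3K27ac (left) and H3K4me3 (right) in the 3 groups, at genes at least 25 points higher in GD15M_LM (red circles), at genes at least 25 points higher in CD15M_CM (blue squares) and at all genes with a peak (crosses). The genes were chosen on the first 2 H3K27ac columns. The H3K27ac medians in GD15M_CM are 75.7 and 69.7, and the H3K4me3 medians lie between 62.7 and 80.6.

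Distal peaks, over 3 kb from both ends of every gene, made up most of each list. GD15M_LM had 33426 of them and 5817 (17.4%) had no base in a CD15M_CM peak. CD15M_CM had 52654 and 27055 (51.4%) had no base in a GD15M_LM peak. With equal numbers of top peaks the counts were 10250 and 14114. Of these one-list peaks, 71.0% in GD15M_LM and 75.4% in CD15M_CM lay within a gene body. They were weak, with 40 and 212 meeting the stricter limits, and 9.94% and 8.10% overlapped an H3K4me3 peak of the same group, against 26.8% and 24.02% of shared distal peaks. GD15M_CM held a peak at 27.4% (interval 26.3 to 28.6) of those in GD15M_LM only and at 39.6% (39.0 to 40.2) of those in CD15M_CM only.

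The strongest distal peaks of GD15M_LM alone were also peaks of GD15M_CM. The first, at chr12:57291492-57292087, had a fold enrichment of 12.7 in GD15M_LM and 8.87 in GD15M_CM, and the nearest CD15M_CM peak was 52.9 kb away. The second, at chrX:1084937-1085579, had 10.6 and 18.3. One lay in GALNTL6, a gene of the GalNAc transferase family, at chr14:18044999-18045336, with 9.48 and 10.6 and no CD15M_CM peak within 301 kb. One at chr5:86514528-86514870, nearest to the centrosome gene NEDD1, had 9.19 and 11.13. The remaining 2, on chromosomes 18 and 14, had 8.58 and 11.5 and 8.15 and 6.68, and the latter lay 1.03 kb from a CD15M_CM peak. All 6 were peaks of both lists from pregnant gilts with no H3K4me3 peak in any group, while of the 40 that met the stricter limits GD15M_CM held 25, and whether each is a difference between gilts was not tested.

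The strongest distal peaks of CD15M_CM alone lay in or near genes. In the first place was one in DNAJC18, at chr2:141303442-141304770, with a fold enrichment of 8.73 in CD15M_CM and 4.82 in GD15M_CM. One within RASAL2 had 7.07 and lay on H3K4me3 peaks of all 3 groups, with a GD15M_LM peak 0.548 kb away. Further ones were near FRY (7.02) and within ARID1B and MAML1 (6.90 each). GD15M_CM held a peak at 5 of the 6, all but the one in RASAL2, and at 167 of the 212 that met the stricter limits. Among the genes with the most distal peaks of CD15M_CM alone at a −log10 p of at least 10 were CCDC12, with 3 among 14 such peaks of any strength, and with 2 each MAML1 among 5, DOCK9 among 41, PSD3 among 14, EDNRA, the endothelin receptor A of smooth muscle, among 6 and DDR2, a collagen receptor, among 12. GD15M_LM alone held 2 distal peaks at DOCK9 and 0 at the other 5 named here. For GD15M_LM alone, no gene held more than 1 peak past that limit.

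Counted by gene list, GD15M_LM supplied 17.7% of all distal one-list peaks as called and 42.1% with equal numbers of top peaks. Extracellular matrix genes were above both, with 63 GD15M_LM and 141 CD15M_CM peaks (30.9%, interval 24.9 to 37.5), and 62.0% with equal numbers. COL5A1 held 14 and 13, and COL18A1, whose end fragment is endostatin, 9 and 5. Contractile genes stood at 24.9% and 50.9%, receptors at 27.3% and 54.7%, and potassium channels and connexins at 26.4% and 56.6%. In the last of these KCNMA1, the large-conductance calcium-activated channel, held 4 and 51, so the list without it was further in favour of GD15M_LM, whereas KCNN3, a small-conductance channel, held 9 and 8.

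Steroid receptors and their co-regulators were below both shares, with 4 GD15M_LM and 73 CD15M_CM peaks (5.19%, interval 2.04 to 12.6), and 14.3% with equal numbers. ESR1 held 0 and 27, NRIP1, a corepressor of nuclear receptors, 0 and 11, and FKBP5, a chaperone induced by glucocorticoids and progesterone, 0 and 7. With equal numbers of top peaks ESR1 held 1 and 18. Beside these ESR1 held 15 GD15M_LM and 11 CD15M_CM distal peaks that the lists shared, so the gene was marked in both. The IGF list stood at 4 of 71 peaks (5.63%), and at 17 of 50 with equal numbers of top peaks, with 0 and 30 at IGF1R, the receptor of both insulin-like growth factors. Without IGF1R it stood at 4 of 41 peaks (9.76%), and with equal numbers at 12 of 27 (44.4%), which is above the share over all genes. The calcium sensitisation and cyclic GMP list stood at 5.56% and 23.4%, with 1 and 11 at PPP1R12A, the myosin phosphatase targeting subunit. Without ESR1 the steroid receptor list stood at 8% and 18.9%, and without PPP1R12A the latter list stood at 4.76% and 27.8%. Other members with many peaks of CD15M_CM alone were the syntrophin SNTB1, with 0 and 37, and TEAD1, with 2 and 31.

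**Figure D5:**
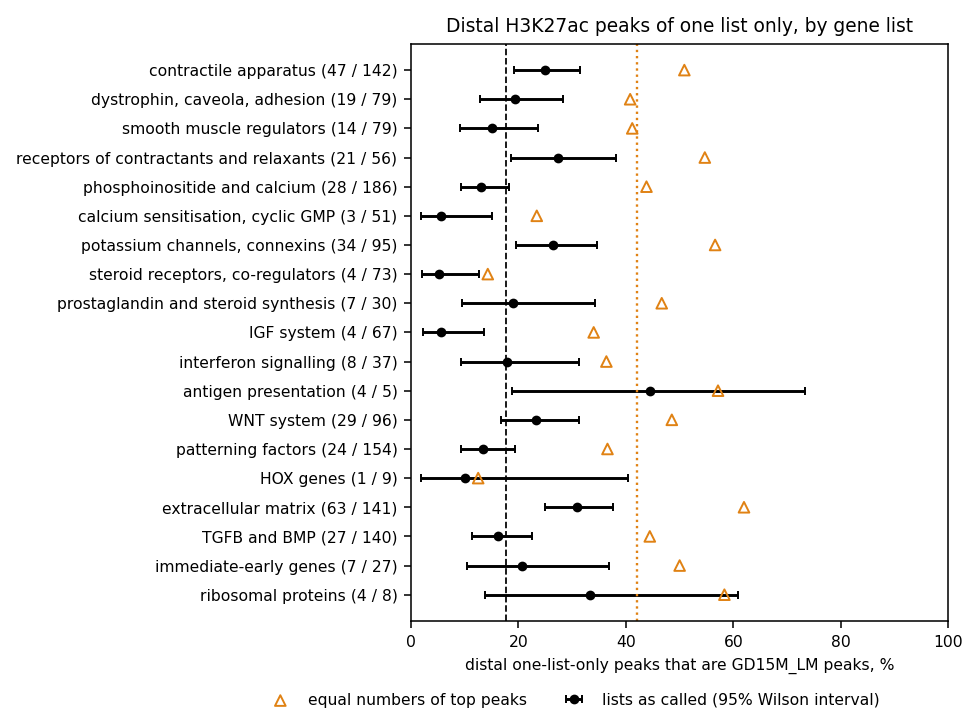
Share, in percent, of distal one-list peaks at the genes of each list that are GD15M_LM peaks, as called (black circles, with 95% Wilson intervals) and with equal numbers of top peaks (open triangles). Vertical lines are the shares over all genes, 17.7% (dashed) and 42.1% (dotted), and the numbers beside each name are GD15M_LM and CD15M_CM peaks as called. Extracellular matrix, at 30.9% and 62.0%, lies to the right of both lines, and 6 lists, steroid receptors among them at 5.19% and 14.3%, lie to the left of both.

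Single genes outside the lists, named here after their values were seen, ran to larger counts. NEDD4L, a ubiquitin ligase of ion channels, held 1 peak of GD15M_LM alone and 49 of CD15M_CM alone, and 1 and 40 with equal numbers of top peaks. SIPA1L3 held 0 and 43, TRIO, an exchange factor for small GTPases, 4 and 54, and GNAQ, the G protein subunit downstream of contractant receptors, 2 and 41. In favour of GD15M_LM, NTRK3, a neurotrophin receptor, held 11 and 2, and HSPG2, the basement membrane proteoglycan perlecan, 10 and 1. Long genes hold more peaks, and neither count was divided by length.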

How the data were processed

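CUT&Tag libraries of H3K27ac, H3K4me3 and an IgG control came from the myometrium of 2 gilts in each of 3 groups, 18 libraries in all. Per the labels and the methods of the study, the authors aligned reads to Sus scrofa 11.1 with BWA 0.7.17-r1188, removed duplicates and reads with a mapping quality under 25 with SAMtools 1.9 and Picard 2.8.3, pooled both gilts of a group and called peaks against IgG with MACS2 2.2.6. Each deposited list gives the fold enrichment of a peak over IgG, a ratio, as the authors' peak caller wrote it. The deposited −log10 p values came from a column whose header was damaged, and they were identified by their place in the MACS2 layout. The authors also normalized the marks with IgG by bamCompare of deepTools, and how the peak caller scaled the mark against IgG is not given in the sources used here. The lists hold no read depth and no value for a single gilt, so the precision within a group is unknown and no test was made. One further statistics column of the lists was not used.

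Peaks sharing at least 1 bp were counted as overlapping. Genes were 28210 RefSeq models of Sscrofa11.1 on named chromosomes, with 5 genes placed by an older symbol. Fold enrichment was turned into a percentile within its own list, which leaves out differences in scale between lists, and a gene took its highest peak within 3 kb of either end. Distal peaks lay over 3 kb from all gene ends, and a distal peak was given to the gene whose body held it, or otherwise to the nearest one. The text names the list members with the largest difference in each direction and those against the direction of their list, the 12 genes of any kind with the largest difference in each direction, the 6 strongest distal peaks of either list alone and up to 8 genes in each direction with the most distal peaks of 1 list at a −log10 p of at least 10, and further members and genes were chosen after their values were seen. Members and gene lists were chosen with earlier results of these data known. Alternatives were peaks with a −log10 p of at least 10 and a fold enrichment of at least 5 (stricter peaks), equal numbers of top peaks, peaks less than 1 kb apart joined, ranking by −log10 p, other windows, protein-coding genes alone, coverage of at least 50% of a peak, and distances over 10 kb. Leaving out of a list the member with most distal peaks was added after the data were seen. The overlap and percentile steps were tested on simulated data. Python 3.11.15, pandas 2.3.3, NumPy 2.4.6, SciPy 1.17.1 and Matplotlib 3.10.9 were used. Promoter sequences and motifs were not analysed here. A few genes of the lists are not reported here.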

Additional observations from a re-analysis of the deposited data

How the results depend on the processing

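No paired analysis was possible because peaks were called on the 2 gilts of each group together, and for the same reason no gilt could be left out. With both lists cut to stricter peaks, the shared share was 50.8% of GD15M_LM and 55.5% of CD15M_CM. Distal one-list peaks then came to 2140 and 2332. A partner under the limits did not count there, and against the full other list 40 and 212 stricter distal peaks had no partner. The genes at least 25 points higher in GD15M_LM came to 4134 and the listed genes to 125. The cell type markers came to 9 in GD15M_LM and 5 in CD15M_CM. With equally many top peaks, shares of 74.4% and 67.4% overlapped, with distal peaks of 10250 and 14114, 3583 genes higher in GD15M_LM, 84 and 38 listed genes, and 13 and 12 markers. Joining peaks less than 1 kb apart gave shares of 86.9% and 60.8%, with 17097 distal peaks of CD15M_CM alone. Asking for at least 50% of a peak gave shares of 78.7% and 44.9%. Outside every gene body lay 1687 and 6653 of the distal peaks. Ranking by −log10 p gave 902 genes and 29 listed genes higher in GD15M_LM. The count of genes higher in CD15M_CM stayed between 2256 and 3478 against 3243.

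Of 110 genes named with a difference of at least 25 points, 609 of 708 values under the alternatives kept their direction and size limit and 13 turned. Taking the whole gene turned CACNA1C to 0.378 points, ADRA1B to 8.32, ATP2B4 to −1.20, CHRM2 to −17.2, IRF2 to 0.633, KCNH2 to 6.67, LAMB1 to −1.83, MEF2A to −15.9 and SLCO2A1 to 4.99. Windows of 1 kb turned EPCAM to 17.9, IRF2 to 42.5 and SLA-2 to −4.16, and −log10 p turned PTGER4 to −0.072. The causes were not tested. A gene without a peak is one below the caller's limit, which is not shown to lack the mark.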

Other observations

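Along the genome the 2 lists kept much the same proportion. For every 100 CD15M_CM peaks there were between 63.0 and 75.7 GD15M_LM peaks on each of the 18 autosomes and 84.8 on chromosome X, where 77.9% of the GD15M_LM peaks and 69.4% of the CD15M_CM peaks were shared. In 1322 bins of 1 Mb with at least 25 peaks in both lists together, the median was 68 GD15M_LM peaks for every 100 of CD15M_CM, and GD15M_LM had the larger number in 39 bins. The bins named here were chosen after their values were seen. The bin most in favour of GD15M_LM lay at 191 to 192 Mb of chromosome 1, around NTRK3, AEN and ISG20, with 31 peaks in GD15M_LM, 20 in CD15M_CM and 11 in GD15M_CM. The bin most in favour of CD15M_CM lay at 31 to 32 Mb of chromosome 8, around APBB2 and RBM47, with 4, 23 and 70 peaks.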
